A study of Mus musculus with 9 samples.

Results

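Smooth muscle actin and tropomyosin genes were examined in TtT/GF, an established mouse line of folliculostellate cells from the pituitary, after treatment with the adenosine analog NECA (5/-N-ethylcarboxamidoadenosine), which activates adenosine receptors. The 10 genes were Acta2, Actg2, Tagln, Cnn2, Vcl, Tpm1, Tpm2, Tpm4, Actn1 and Myl9, taken as every probe set annotated with exactly 1 of these symbols. That gave 14 of the 12488 probe sets of the array, for 10 of the 8251 genes that the array names this way. A further probe set that names Tpm4 together with a second gene was not used. The 3 groups had 3 MG_U74A v2 GeneChips each, 1 per replicate culture: untreated cells, cells after 30 min with 10 µM NECA, and cells after 120 min with the same dose. The culture medium held heat-inactivated serum in every group. The untreated cells have no stated time and no vehicle is named, so both comparisons share the same 3 untreated arrays and lack a control matched in time. TtT/GF is a single established line, grown without the hormone cells that surround folliculostellate cells in the pituitary.

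The proteins encoded by these genes build and brace the contractile actin cytoskeleton. Actin filaments carry tropomyosins and calponins along their length, are cross-linked by alpha-actinin, anchored at focal adhesions by vinculin and pulled by myosin. Many of the genes are known targets of serum response factor (SRF), which binds CArG boxes in their promoters and responds to the state of actin through myocardin-related cofactors. Folliculostellate cells are non-hormonal, and stress fibres and smooth muscle actin are common in cultured cells of mesenchymal type.

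None of the 10 genes passed the test at either time. At 120 min the differences with an unadjusted limma p under 0.05 were in the calponin gene Cnn2 and in the smooth muscle actin genes Actg2 and Acta2, which were 1.59-fold, 1.51-fold and 1.47-fold below their untreated levels, and in Tpm2, 1.26-fold below. Tpm1 was 1.21-fold above its untreated level. For each of these 5 genes the 3 arrays at 120 min lay on 1 side of the 3 untreated arrays. These values are on the scale of signal plus an offset of 7.93, which understates changes of dim probe sets. Some noisier probe sets of Actn1, Vcl and Myl9 differed by as much as Tpm2 or Tpm1 at a larger p. For Cnn2 the adjusted p was 0.0554 against a threshold of 0.05, by limma with Benjamini-Hochberg adjustment over 7851 tested probe sets.

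Of the 14 probe sets 13 were bright enough to be tested, meaning a signal above 20.5 on at least 3 of the 9 arrays. The second Tpm2 probe set (161320_r_at) was not, with signals of 3.32 to 15.7. Myl9 passed on exactly 3 arrays, and the third Actn1 probe set on 7. At 30 min 0 of the 13 were called higher and 0 lower, where 0.357% of all tested probe sets were called higher and 0% lower. At 120 min the counts were again 0 and 0, against 1.83% and 1.54% of all tested probe sets. Between 30 and 120 min they were 0 and 0, against 1.35% higher and 1.62% lower, and the moderated F-test over the 3 groups called 0 of 13, against 3.1%. The background at 30 min varied with the arrays used. Without NECA 30 min replicate 2, 39 of all tested probe sets were called higher and 46 lower, against 28 and 0 with all arrays.

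At an unadjusted limma p under 0.05 the counts at 30 min were 0 higher and 0 lower, against 3.87% and 4.7% of all tested probe sets. At 120 min 1 of the 13 was higher (Tpm1) and 4 were lower (Acta2, Actg2, Cnn2 and Tpm2), which is 7.69% and 30.8% of them, against 6.42% and 8.93% overall. From 30 to 120 min 0 were higher and 2 were lower (Actg2 and Cnn2), against 6.02% and 6.97%. Because the genes were chosen with earlier results of these data known, no test was made of these shares.

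**Figure D1:**
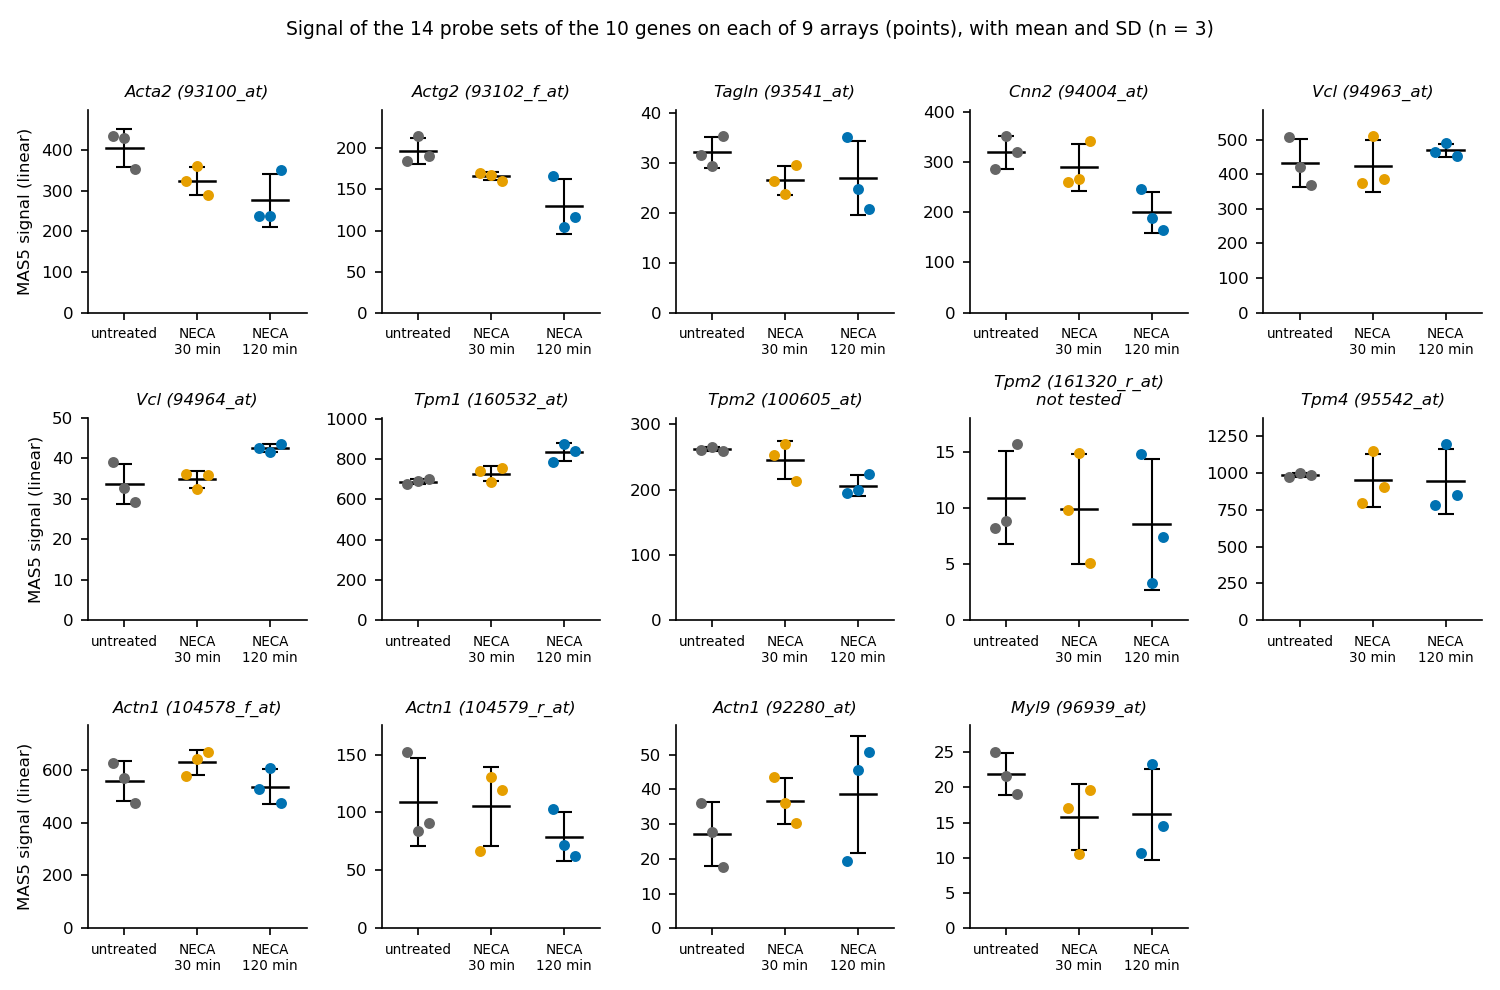
MAS5 signal on a linear scale for each of the 14 probe sets in the 3 groups, with a point for each array, a bar for the mean and whiskers for the SD (n = 3). The 3 arrays at 120 min lie below the 3 untreated arrays for Acta2, Actg2, Cnn2 and Tpm2 (100605_at) and above them for Tpm1 and for Vcl (94964_at).

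Acta2 encodes the alpha actin of vascular smooth muscle and of myofibroblasts. Its probe set (93100_at) read 434, 429 and 352 in untreated cells, 324, 360 and 290 at 30 min, and 239, 238 and 352 at 120 min. The third array at 120 min matched the lowest untreated array to within 0.067 signal units, so these groups nearly touched, while the other two arrays at 120 min were the lowest of all 9. The means were 405 ± 45.9, 325 ± 35.2 and 276 ± 65.7 (SD, n = 3 each). The log2 change was -0.31 ± 0.17 (SE) at 30 min and -0.56 ± 0.17 at 120 min (limma adjusted p = 0.61 and 0.12), with a 95% interval of -0.93 to -0.19 at 120 min before any adjustment for the number of tests. Without NECA 120 min replicate 3 the change was -0.74 and passed (adjusted p = 0.0364), and over all alternatives the adjusted p ran from 0.0364 to 0.38.

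Actg2 encodes the gamma actin of enteric smooth muscle. Its signals (93102_f_at) were 184, 215 and 191 in untreated cells, 170, 168 and 160 at 30 min, and 167, 105 and 117 at 120 min. All treated arrays at both times lay below all untreated arrays, with the first array at 120 min close to the arrays at 30 min. The log2 change was -0.23 ± 0.16 (SE) at 30 min and -0.60 ± 0.16 at 120 min (limma adjusted p = 0.643 and 0.0795), with an interval of -0.95 to -0.24 at 120 min. Without NECA 120 min replicate 1 it was -0.79 and passed (adjusted p = 0.0136), and the adjusted p ran from 0.0136 to 0.291 over the alternatives. The suffix f marks a probe set that shares probes with related sequences, and actin genes are near-identical in their coding parts, so signal from other actins cannot be told apart from that of Actg2 here.

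Other actins were set beside them. The striated muscle actin genes Acta1 and Actc1, looked up after their values were seen, stood at -0.46 ± 0.19 and -0.48 ± 0.21 (SE) at 120 min without passing (limma adjusted p = 0.284 and 0.312). The arrays at 120 min all lay below the untreated arrays for Actc1, whose probe set also carries the suffix f, and overlapped with them for Acta1. Actg1, the cytoplasmic gamma actin that every cell uses, was at -0.02 ± 0.09 (adjusted p = 0.932), with signals of 3057 to 3178 in untreated cells and 2849 to 3165 at 120 min. Actb, the cytoplasmic beta actin, was at 0.28 ± 0.40 (adjusted p = 0.763) on a probe set with a signal of only 58.1 ± 26.3 in untreated cells (SD, n = 3). On the array's own beta actin control for the 3' end the signal was 5884 ± 656 in untreated cells, 5699 ± 506 after 30 min and 6127 ± 453 after 120 min, with overlapping groups.

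Cnn2 encodes calponin 2, an actin-binding regulator of contractility found in smooth muscle and in many non-muscle cells. Its signals (94004_at) were 286, 351 and 320 in untreated cells, 260, 265 and 342 at 30 min, and 245, 189 and 164 at 120 min. The arrays at 30 min overlapped with the untreated ones, while all 3 arrays at 120 min were below every array of the other groups. The means were 319 ± 32.5, 289 ± 46.0 and 199.6 ± 41.5 (SD, n = 3 each). The log2 change was -0.15 ± 0.17 (SE) at 30 min (limma adjusted p = 0.759), -0.67 ± 0.17 at 120 min (adjusted p = 0.0554, interval -1.04 to -0.30) and -0.53 ± 0.17 from 30 to 120 min (adjusted p = 0.173).

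The call of Cnn2 at 120 min depended on the setting. It passed without NECA 120 min replicate 1 (-0.82, limma adjusted p = 0.0294), without NECA 30 min replicate 3 (adjusted p = 0.0304), when the fit held the untreated and 120 min arrays alone (adjusted p = 0.04) and with a stricter filter on dim probe sets (adjusted p = 0.0468). Over all alternatives its change ran from -0.82 to -0.55 and its adjusted p from 0.0294 to 0.241. Tagln, which encodes transgelin (SM22), a relative of the calponins that marks smooth muscle, was much dimmer, at 32.1 ± 3.02 in untreated cells, 26.6 ± 2.89 after 30 min and 26.9 ± 7.44 after 120 min (SD, n = 3 in each group). Its groups at 120 min overlapped and its change there was -0.22 ± 0.19 (SE, adjusted p = 0.608).

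Promoters of the genes were searched for the CArG box. RefSeq windows of 300 bases on GRCm38.p6, from 250 before to 50 after the start, were at hand for 8 of the 10 genes (Actg2 and Tagln are not among them). The CArG box occurred in 3 of the 8, those of Cnn2, Vcl and Myl9, and in 1.63% of 32851 promoter windows of the same length. The 10 genes were chosen as contractile and actin-binding genes of SRF type, so their share is no independent evidence. The degenerate consensus of the box is its own reverse complement, so 1 search covers both strands, and an exact match to it was required. A string 1 letter off the consensus was not counted, such as ccctatatgg in the window of Acta2. A gene without a match may thus still hold a variant of the box. The sequences of the 3 windows are shown because they place the box in the gene with the largest difference and in a pair of genes without such a difference. They are chr10:79988350-79988649 (plus strand) for Cnn2, chr14:20929148-20929447 (plus strand) for Vcl and chr2:156775214-156775513 (plus strand) for Myl9, written 5′ to 3′ with the CArG box in capitals.
Cnn2: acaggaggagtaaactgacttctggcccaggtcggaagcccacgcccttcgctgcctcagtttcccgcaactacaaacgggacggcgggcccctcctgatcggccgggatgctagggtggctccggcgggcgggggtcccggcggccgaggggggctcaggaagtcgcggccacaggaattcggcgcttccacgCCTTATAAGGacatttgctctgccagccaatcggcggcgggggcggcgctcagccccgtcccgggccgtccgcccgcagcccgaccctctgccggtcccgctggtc
Vcl: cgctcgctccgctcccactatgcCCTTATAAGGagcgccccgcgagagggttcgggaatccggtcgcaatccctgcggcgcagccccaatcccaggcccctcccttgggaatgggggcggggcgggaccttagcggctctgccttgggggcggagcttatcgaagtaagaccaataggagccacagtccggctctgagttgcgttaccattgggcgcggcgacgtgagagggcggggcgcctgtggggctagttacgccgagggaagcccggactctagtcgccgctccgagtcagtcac
Myl9: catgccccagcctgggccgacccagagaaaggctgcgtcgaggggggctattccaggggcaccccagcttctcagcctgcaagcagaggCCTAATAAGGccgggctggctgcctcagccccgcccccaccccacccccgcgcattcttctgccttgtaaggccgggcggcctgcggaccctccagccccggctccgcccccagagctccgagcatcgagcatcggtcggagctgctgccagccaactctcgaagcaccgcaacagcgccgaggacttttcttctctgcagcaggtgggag

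The box began 56 bases before the start in Cnn2, 161 in Myl9 and 227 in Vcl. Cnn2 and Vcl held the same 10 letters, CCTTATAAGG, and Myl9 held CCTAATAAGG. The 3 genes did not share a direction at 120 min: the log2 change was -0.67 for Cnn2, -0.34 for Myl9 and 0.13 and 0.28 for the probe sets of Vcl. The MCAT motif of TEAD factors (CATTCC, either strand) occurred in 3 of the 8 windows, those of Acta2, Vcl and Tpm1, and in 14.7% of all windows. The cAMP response element (TGACGTCA, its own reverse complement) occurred in 0 of the 8 and in 1.79% of all windows. Here too an exact match was required. Strings 1 letter off were not counted, such as cgacgtca and tgacgtcg in the window of Tpm4. No CArG box overlapped with an MCAT match. A match is a string of letters and was not tested as a binding site.

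Tropomyosins are coiled-coil proteins that lie along actin filaments and gate the access of myosin and cofilin. Tpm1 (160532_at) had signals of 674, 691 and 698 in untreated cells, 742, 684 and 757 at 30 min, and 785, 874 and 840 at 120 min. Tpm1 was higher on all 3 arrays at 120 min than on any other array. Its log2 change at 120 min was 0.27 ± 0.11 (SE, interval 0.04 to 0.51, limma adjusted p = 0.248).

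Tpm2 (100605_at) had the opposite sign. Its signals were 261, 266 and 260 in untreated cells, 253, 270 and 214 at 30 min, and 195, 199.8 and 224 at 120 min. The untreated arrays agreed closely (262 ± 3.27, SD, n = 3), and all arrays at 120 min lay below them. The change at 120 min was -0.34 ± 0.13 (SE, interval -0.62 to -0.06, limma adjusted p = 0.226). Tpm4, a mainly non-muscle tropomyosin, read 972, 996 and 982 in untreated cells, 793, 1143 and 905 at 30 min, and 782, 1193 and 850 at 120 min (95542_at). Its untreated arrays differed by little, whereas its treated arrays scattered on both sides of them, with an SD of 12.2 in untreated cells against 179 and 220 at 30 and 120 min. Its change at 120 min was -0.09 ± 0.17 (SE, adjusted p = 0.843). No difference between tropomyosin genes was tested.

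Vcl encodes vinculin, which links integrin adhesions to actin filaments. Its brighter probe set (94963_at) read 507, 421 and 370 in untreated cells, 376, 510 and 387 at 30 min, and 463, 491 and 453 at 120 min, and the 3 groups overlapped. The dimmer probe set (94964_at) read 39.1, 32.8 and 29.4, then 36.1, 32.5 and 36.0, then 42.6, 41.6 and 43.5, with all arrays at 120 min above all others. Neither passed at 120 min, at 0.13 ± 0.15 and 0.28 ± 0.15 (SE, limma adjusted p = 0.721 and 0.404). The interval of the brighter one, -0.21 to 0.46, leaves room for a change of up to that size.

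Actn1 encodes alpha-actinin 1, the cross-linker of stress fibres, and had 3 probe sets. The brightest (104578_f_at) read 626, 568 and 476 in untreated cells, 576, 640 and 668 at 30 min, and 527, 608 and 474 at 120 min. It carries the suffix f, so signal from related sequences cannot be told apart from that of Actn1 here. The groups overlapped at both times, and the log2 changes were 0.18 ± 0.14 and -0.05 ± 0.14 (SE, limma adjusted p = 0.674 and 0.895). The others did not point the same way at 120 min, at -0.41 ± 0.27 for 104579_r_at and 0.36 ± 0.29 for 92280_at, and their groups overlapped as well. Leaving out 1 array at a time moved these values from -0.60 to -0.16 (lowest without NECA 120 min replicate 1, highest without untreated replicate 1) and from 0.15 to 0.70 (lowest without untreated replicate 3, highest without NECA 120 min replicate 1). The value of 104579_r_at was -0.85 in a fit that took in each array's Gapdh ratio. Their spread was wide, with an untreated SD of 37.7 around 109 and of 9.19 around 27.2 (n = 3 each).

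Myl9 encodes the regulatory light chain of smooth muscle and non-muscle myosin II, whose phosphorylation starts contraction. Its signals (96939_at) were near the limit of the filter, at 25.03, 21.6 and 19.0 in untreated cells, 17.1, 10.6 and 19.6 at 30 min, and 10.6, 23.3 and 14.6 at 120 min. The groups overlapped, and the changes of -0.35 ± 0.26 and -0.34 ± 0.26 (SE) at 30 and 120 min did not pass (limma adjusted p = 0.656 and 0.548). Mylk, the kinase of that light chain, looked up after its values were seen, was at -0.32 ± 0.13 at 120 min (adjusted p = 0.285).

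**Figure D2:**
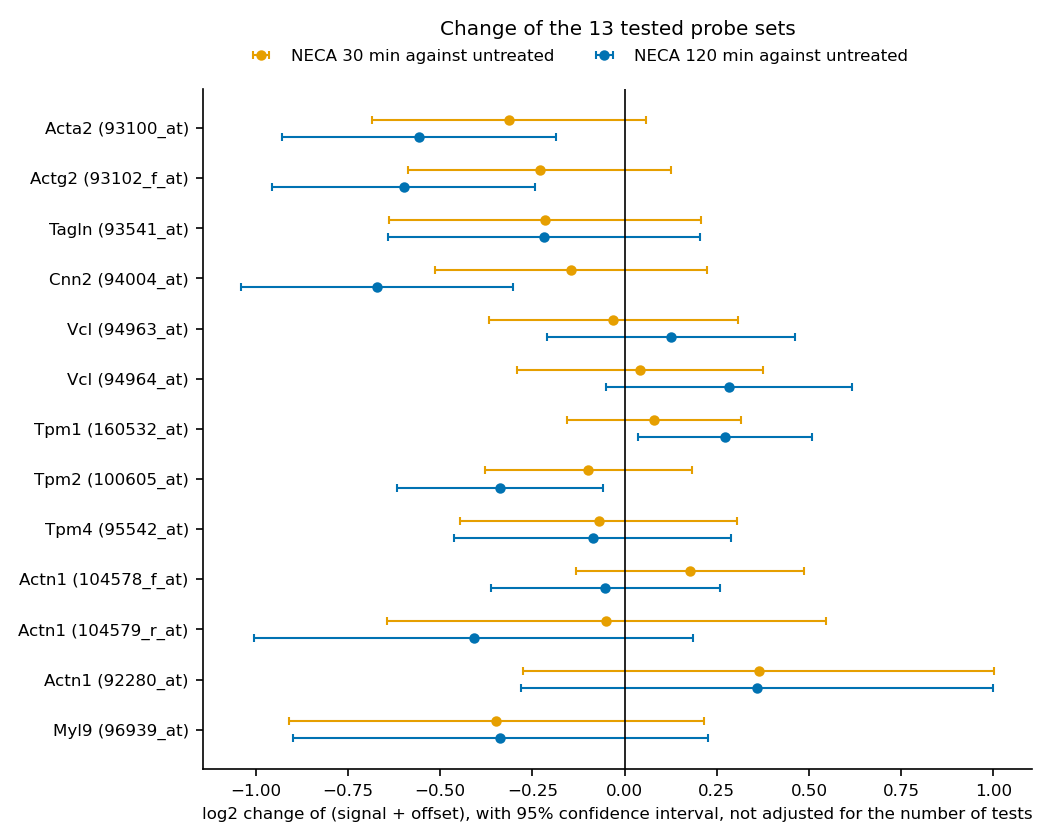
Log2 change of signal plus offset for each of the 13 tested probe sets at 30 min (orange) and 120 min (blue) against the same untreated arrays, with 95% confidence intervals not adjusted for the number of tests. At 30 min every interval spans 0, and at 120 min those of Acta2, Actg2, Cnn2 and Tpm2 lie below 0 and that of Tpm1 above it, though 0 of 13 passed after adjustment.

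Counted over arrays, 4 of the 13 probe sets had all arrays at 120 min below all untreated arrays (Acta2, Actg2, Cnn2 and Tpm2) and 2 had them all above (Tpm1 and 1 of Vcl). Over all tested probe sets these shares were 13% and 12.3%, so the upward count, at 15.4% of the 13, is near the background. The downward count was 30.8% of the 13, with Acta2 in it by 0.067 signal units. It was not tested, because the genes were chosen with earlier results of these data known. Array medians were 33.1 to 36.19 at 120 min and 36.25 to 38.3 in untreated cells, and their part in these counts was not tested. At 30 min 1 was all lower (Actg2) and 0 were all higher, against 8.65% and 6.11%. From 30 to 120 min 1 was all lower (Cnn2) and 2 were all higher (Tpm1 and 1 of Vcl), against 9.07% and 7.44%.

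With each gene represented by its brightest probe set, the 10 genes had a median log2 change of -0.12 at 30 min and -0.28 at 120 min, beside -0.04 and -0.04 over all tested probe sets. At 120 min 8 were negative and 2 positive (Vcl and Tpm1). The Gapdh 3' to 5' ratio, a sign of RNA quality, was 0.995 ± 0.028 in untreated cells, 0.921 ± 0.038 after 30 min and 0.947 ± 0.029 after 120 min (SD, n = 3 in each group). With that ratio as a covariate the changes at 120 min were -0.78 for Cnn2, -0.65 for Actg2, -0.57 for Acta2 and -0.26 for Tpm2, and 0 of the 13 passed. The median signal of an array was 37.4 ± 1.05, 34.6 ± 0.96 and 34.5 ± 1.56 (SD, n = 3 each), and arrays of a group correlated at 0.947 to 0.978.

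Other genes of the contractile machinery were read from a list of 24 actins, myosins and their regulators, of which 19 were on the array and 13 were tested. Of these 0 rose, 0 fell and 13 did not pass at either time, with a median of -0.13 at 120 min. Among 32 tested actin-binding and focal adhesion genes 1 rose, 1 fell and 30 did not pass at 120 min, against 1.83% higher and 1.54% lower among all tested probe sets, so these counts are near the background. The change was upward in Csrp2, a LIM protein of smooth muscle, from 138 ± 6.57 to 273 ± 24.0 (SD, n = 3 each; 0.94 ± 0.18, SE, limma adjusted p = 0.0113). It was downward in Cfl2, the muscle form of the actin-severing protein cofilin, from 230.1 ± 20.5 to 100.6 ± 19.8 (-1.15 ± 0.25, adjusted p = 0.0259).

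A further list held 11 mostly immediate early and matricellular genes that SRF can drive, and it was drawn up with their responses in these samples known, so its counts are no independent evidence. Of its 9 tested genes 3 rose and 0 fell at 30 min, among them Fos (1.42 ± 0.15, SE, limma adjusted p = 0.000916), and 8 fell, 0 rose and 1 did not pass at 120 min. Over all tested probe sets 0.357% were called higher and 0% lower at 30 min, and 1.83% higher and 1.54% lower at 120 min. The smallest p-values at 120 min belonged to Ccn2, Ankrd1 (-3.43 ± 0.13, SE), Fos (-3.41 ± 0.15) and Egr2 (-2.68 ± 0.12), with limma adjusted p-values up to 1.26e-07. Ccn2, a secreted matrix-associated protein gene, went from a signal of 344 ± 13.3 in untreated cells to 1.79 ± 0.439 at 120 min (SD, n = 3 each). The latter is below both the filter and the offset, so the fitted value of -5.18 is set by the offset and is no measure of size. The mean signal of Fos at 120 min, 19.4 ± 1.30 (SD, n = 3), was also below the filter, so the offset understates its change as well. The list's median was -3.22 at 120 min, beside -0.28 for the 10 contractile genes. The size of the gap between the lists was not tested.

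**Figure D3:**
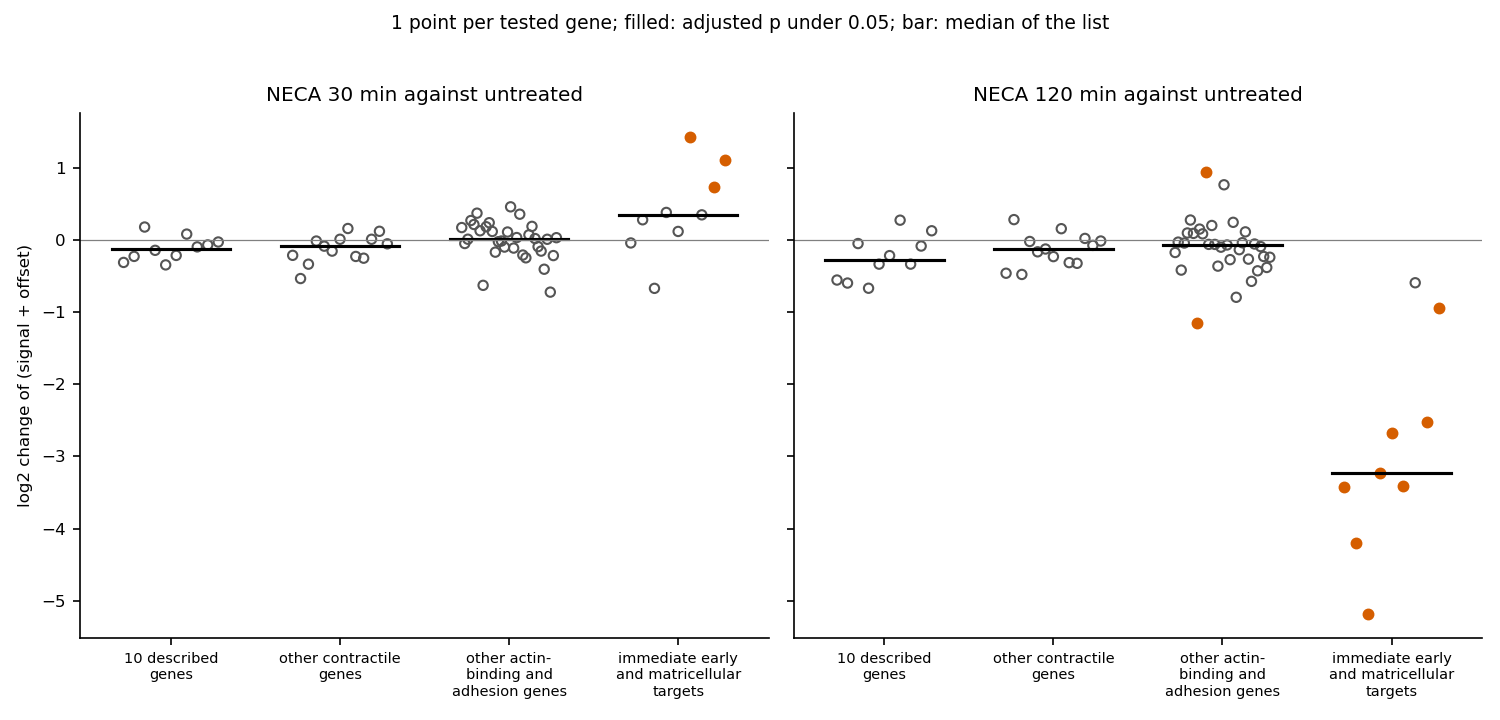
Log2 change of signal plus offset at 30 min (left) and 120 min (right) for every tested gene of 4 lists, with filled points for an adjusted p under 0.05 and a bar at the list's median. All 10 contractile genes lie between -0.67 and 0.27 at 120 min and 0 are filled, while 8 of the 9 genes of the immediate early and matricellular list are filled and lie below 0.

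The cell type labels were read against marker lists. Of 10 folliculostellate and glial-type markers all were on the array and 7 were tested, among them S100b, Gfap and the connexin gene Gja1. Of these 7, 0 passed at either time. Vim, Sox2 and Aldh1a2 were not tested, with a signal above 20.5 on 2 of the 9 arrays for Vim and on 0 for the others. Gja1 at 120 min was close to the threshold, at 0.61 ± 0.15 (SE, limma adjusted p = 0.0527) with all arrays higher (1135 to 1710 in mean signal). S100b and Aldh1a1 were lower on all arrays at 120 min (-0.40 ± 0.27 and -0.28 ± 0.23). Gfap, above 20.5 on 6 of the 9 arrays, was lower on all arrays at 30 min and overlapped at 120 min. Its mean signal went from 31.5 to 15.8 at 30 min (-0.73 ± 0.33, SE, limma adjusted p = 0.577). Of 6 mature smooth muscle markers on the array, Myh11, Cnn1, Smtn and Kcnmb1 were below the filter on all 9 arrays, and Des and Mylk were above it. The summed signal of these 6 was 263 to 284 in untreated cells, 220.3 to 242 at 30 min and 206 to 252 at 120 min, lower in both treated groups. Mylk, which non-muscle cells use too, carried most of that, at 200.4, 170.1 and 160.2 with all treated arrays lower, while Des overlapped between the groups. The part of this sum in the values of the smooth muscle actins was not tested. Of 9 fibroblast and pericyte markers 7 were tested, with Col1a1 at 3435 in untreated cells, and their summed signal, mostly Col1a1 and Col1a2, overlapped between the groups (6655 to 7526, 6990 to 7158 and 6251 to 7039). None of the 7 passed, but Col3a1, a fibrillar collagen gene, went from 701 to 489 at 120 min with all arrays lower (-0.53 ± 0.15, SE, limma adjusted p = 0.0983), and Col1a2 and Pdgfrb were also lower on all arrays at 120 min (-0.16 ± 0.10 and -0.24 ± 0.15). Dcn and Pdgfra were at 0.13 ± 0.19 and 0.08 ± 0.21 (SE) at 120 min, with overlapping arrays. At 30 min Pdgfrb was higher on all arrays (0.23 ± 0.15, SE). The part of these markers in the values of the actin genes was not tested. These genes, and those named for the other marker lists, were chosen after their values were seen. Endothelial markers (9 on the array, 2 tested), leukocyte markers (9 and 3) and pituitary hormone cell markers (8 and 6) held 0 genes that passed at either time. Their summed signals were 571 to 714, 613 to 772 and 587 to 677 for endothelial, 848 to 885, 910.3 to 1076 and 907 to 1163 for leukocyte, and 700.1 to 796, 585 to 689 and 515 to 751 for hormone cell markers, in the order untreated, 30 min and 120 min. The leukocyte sum was thus higher in both treated groups, through Cd14 and Cd68 at 30 min and through Cd14 at 120 min (0.53 ± 0.14, SE, limma adjusted p = 0.0658, all arrays higher), while Ptprc, Itgam, Adgre1, Aif1 and Cd3e were below the filter on all arrays. The hormone cell sum was lower at 30 min and overlapped with untreated cells at 120 min. Most of it was Nr5a1, at 419 in untreated cells. Nr5a1 and Prl were lower on all arrays at 30 min without passing, while the other hormone cell markers overlapped at that time. At 120 min Lhb was lower on all arrays (-0.65 ± 0.27, SE, limma adjusted p = 0.269) and the others overlapped. The 6 tested hormone cell markers were all negative at 120 min. Most of the endothelial sum was Eng, at 592 in untreated cells. The part of these sums in the values of the 10 genes was not tested. In bulk RNA, fewer cells of a type and less RNA per cell cannot be told apart.

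Genes with profiles most like those of Cnn2 and Acta2 were found by the root mean square difference over the 9 arrays, each probe set taken relative to its own untreated mean, among 5885 named genes. For Cnn2, which had the smallest F-test p of the 10, the nearest were Nr1d1, a clock repressor (0.12), Ppp1r15a, a phosphatase subunit of the stress response (0.13), Tbxas1, the thromboxane synthase gene (0.15), Rassf5 (0.15) and G6pc, a glucose-6-phosphatase gene (0.16), all on the log2 scale, where the median over all genes was 0.48. For Acta2 they were Ogt, the enzyme that adds O-GlcNAc to proteins (0.09), Hoxc5 (0.14), St7 (0.15), Pcsk6 (0.15) and Rbpj, the DNA-binding effector of Notch (0.17), with a median of 0.46 over all genes. Ogt stood at -0.31 and -0.59 at 30 and 120 min, close to the -0.31 and -0.56 of Acta2. Likeness over 9 arrays is a description only.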

How the data were processed

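Each of the 9 arrays gave 1 MAS5 signal intensity per probe set, on a linear scale, as deposited by the authors (MAS5 per the submitters' processing notes, with no version stated there). The 2% trimmed mean was 100.06 to 100.07 on all arrays, so the deposited scaling was kept. Gene symbols came from GEO's platform annotation, updated through gene IDs. Of 12422 probe sets that are no array controls, 10833 had 1 symbol, 396 several and 1193 none.

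Signals were turned into log2(signal + 7.93), the offset being the 25th percentile of all values. The filter kept 7851 probe sets with a signal above the 40th percentile (20.5) on at least 3 arrays. limma 3.58.1 in R 4.3.3 (lmFit, eBayes with an intensity trend, all 9 arrays, no covariate) tested the 3 contrasts, two-sided, with Benjamini-Hochberg adjustment over all tested probe sets and a threshold of 0.05. The code was tested on simulated data. An adjusted p is limma's throughout, and a p measures the spread between replicate cultures only. The number of arrays limits the precision.

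The genes, the lists and the tests were chosen with earlier results of these data known. Every probe set of the 10 genes is named. Of each other list up to 4 genes that passed with the smallest p at 120 min are named, with Srf, Actb and Actg1 always where measured, and the 5 nearest profiles of 2 members. Each gene of a list is represented by its brightest probe set. Alternatives were other offsets (1 and 32), filters (none, or the 60th percentile) and scalings, fits with the compared groups only, without the trend, with a replicate block or with the Gapdh ratio, and leaving out each array. Promoter windows are those of RefSeq on GRCm38.p6. Detection calls and protein sequences were not used here. The results of 1 further gene list are not reported here, and a level for Srf was not analysed here.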

Additional observations from a re-analysis of the deposited data

How the results depend on the processing

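The number of probe sets called at 30 min, and from 30 to 120 min, stayed at 0 of those tested under all alternatives. At 120 min it was 1 with the stricter filter (9 probe sets tested) and 1 with only the compared groups (Cnn2 both times), 0 to 2 when arrays were left out in turn, and 0 under the other 8 alternatives. Without NECA 120 min replicate 1 the called genes were Actg2 and Cnn2, without NECA 120 min replicate 3 Acta2, and without NECA 30 min replicate 3 Cnn2. With the replicate block the change of Cnn2 at 120 min stayed at -0.67 (limma adjusted p = 0.0969) and it changed no call. Same-numbered arrays of different groups had deviations correlated at -0.17 to 0.23, with 1 of 9 pairs above 0.1. Differently numbered arrays of different groups were at -0.21 to 0.23, with 4 of 18 pairs above 0.1. The labels name no pairing, and so few arrays cannot show whether same-numbered cultures were handled together.

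Of 39 comparisons 28 kept their sign under every alternative. The other 11 had a value of at most 0.098 in size and an adjusted p of at least 0.617 wherever the sign turned; the cause was not tested. With median scaling the values at 30 min were 0.062 for Vcl (94963_at), 0.022 for Tpm4 and 0.043 for Actn1 (104579_r_at), those at 120 min 0.010 for Tpm4 and 0.045 for Actn1 (104578_f_at), and that of Tagln from 30 to 120 min 0.0015. With the Gapdh ratio they were -0.074 for Vcl (94964_at), 0.021 for Tpm2 and 0.11 for Tpm4 at 30 min, 0.030 for Tpm4 at 120 min, and 0.054 for Tagln and -0.016 for Myl9 between the times. With the offset of 32 they were 0.0027 for Tagln and 0.014 for Actn1 (92280_at), and with quantile normalization -0.013 for Myl9, all between the times. With an array left out, Actn1 ranged from -0.16 to 0.036 (104578_f_at, 120 min), -0.22 to 0.23 (104579_r_at, 30 min) and -0.21 to 0.34 (92280_at, between the times), Tpm4 from -0.21 to 0.048 at 30 min, -0.27 to 0.034 at 120 min and -0.20 to 0.13 between them. The ranges of Vcl at 30 min were -0.17 to 0.088 (94963_at) and -0.034 to 0.13 (94964_at), and between the times those of Tagln were -0.17 to 0.13 and of Myl9 -0.16 to 0.18. Myl9, at the edge of the filter, was not tested under 4 or 5 of the 19 alternatives.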
